A study of Mus musculus with 48 samples.

Results

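Glucocorticoid response genes were followed in RNA of the whole mouse tibia. The 10 genes were chosen by name: Fkbp5, Tsc22d3, Ddit4, Errfi1, Sult1a1, Zbtb16, Klf9 and Sgk1, which glucocorticoid hormone is known to induce in various tissues or which are widely used as readouts of it, and Nr3c1 and Hsd11b1, which encode its receptor and the enzyme that regenerates it. All 10 are among the 29801 genes of the table, and 9 of them passed the minimum mean of 1 FPKM (reads of a gene, counted as fragments, scaled by its transcript length and by the mapped total) that was set for testing, as did 13590 genes in all. Zbtb16 did not.

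The 12 male C57Bl6J mice formed 4 groups of 3: young CR (mice 1, 2 and 3), young AL (mice 9, 10 and 11), aged CR (mice 5, 6 and 7) and aged AL (mice 13, 14 and 15). CR mice were calorie restricted for 8 weeks, by 10% in the first week, 20% in the second and 40% thereafter, and AL mice had food freely. By the labels young mice were 10 weeks and aged mice 15 to 18 months old when the diet began, so that all were 8 weeks older at its end. CR mice received an NIH-31/NIA formula with added micronutrients and AL mice the NIH-31 open formula, so that the amount and the formula of the food cannot be told apart. CR mice were given their food shortly before dark, and the sources used here do not give the hour of killing. The study also made tibial osteotomies, and whether any sequenced mouse had one is not stated there. Whole tibia mixes bone, marrow and attached tissue, and fewer cells of a type and less RNA per cell cannot be told apart. The labels list 4 technical repeats of each mouse, 48 libraries in all, and the table has 1 value per mouse, so that n is the number of mice. Within each group the values below stand in order of mouse number.

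Glucocorticoids are adrenal steroids whose release follows a daily rhythm and increases with stress and with food shortage. The hormone enters cells and binds the receptor Nr3c1, which waits in the cytosol in a complex with heat shock chaperones. The bound receptor moves to the nucleus and binds DNA, often as a dimer on a pair of inverted sites, and raises some genes while repressing others, many of them inflammatory. In bone, lasting glucocorticoid excess is known for lowering osteoblast function and for favouring marrow fat.

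Promoter sequences are shown first, for members whose windows held letters of the receptor's site. In RefSeq windows on GRCm38.p6 that ran from 250 bases before to 50 bases after a transcript start, 8 members had 16 windows (Zbtb16 and Nr3c1 were not examined). The letters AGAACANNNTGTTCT, a full inverted site and its own reverse complement, and either arm of it, AGAACA or TGTTCT, on either strand, were searched. A full site also counts as 2 arms. The full letters stood in 3 of 32851 windows of all genes, which is 0.00913%, and 1 of the 3 belonged to Sgk1 (chr10:21993640-21993939, plus strand). There the letters began 189 bases before the start, at chr10:21993701-21993715. An arm stood in 6233 windows of all genes, 19.0%, and in 5 of the members' 16 windows, which come from Sgk1, Sult1a1 and Tsc22d3. Of the 16 windows Sgk1 had 6 and Tsc22d3 had 3, so that the count of windows leans on these genes. In Sult1a1 (chr7:126676369-126676668, minus strand) arms began 212 and 34 bases before the start, and in Tsc22d3 (chrX:140600473-140600772, minus strand) 1 arm began 185 bases before it. None of these letters stood in the windows of Fkbp5, Ddit4, Errfi1, Klf9 and Hsd11b1. Positions outside the windows were not searched, so that absence here does not mean that a gene lacks a site. The only windows of Fkbp5 (up to chr17:28486399) and Hsd11b1 (up to chr1:193242610) lie inside the genes, whose outermost starts were not read. A match is a description of the letters, and binding of the receptor was not measured. Capitals in the following windows, printed 5′ to 3′ along each gene, mark the arms and, in Sgk1, the full site.

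Sgk1: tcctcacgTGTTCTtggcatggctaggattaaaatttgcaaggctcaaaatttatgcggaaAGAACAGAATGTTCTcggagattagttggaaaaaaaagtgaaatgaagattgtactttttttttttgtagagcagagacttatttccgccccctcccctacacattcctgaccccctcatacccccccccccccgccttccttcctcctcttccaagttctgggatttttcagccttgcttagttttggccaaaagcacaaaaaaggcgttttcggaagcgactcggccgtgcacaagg

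Sult1a1: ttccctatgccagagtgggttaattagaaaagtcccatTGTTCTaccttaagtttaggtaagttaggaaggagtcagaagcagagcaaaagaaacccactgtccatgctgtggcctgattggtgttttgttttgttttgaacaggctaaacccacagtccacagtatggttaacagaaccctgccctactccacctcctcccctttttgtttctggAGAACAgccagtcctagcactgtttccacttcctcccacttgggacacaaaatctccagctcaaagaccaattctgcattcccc

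Tsc22d3: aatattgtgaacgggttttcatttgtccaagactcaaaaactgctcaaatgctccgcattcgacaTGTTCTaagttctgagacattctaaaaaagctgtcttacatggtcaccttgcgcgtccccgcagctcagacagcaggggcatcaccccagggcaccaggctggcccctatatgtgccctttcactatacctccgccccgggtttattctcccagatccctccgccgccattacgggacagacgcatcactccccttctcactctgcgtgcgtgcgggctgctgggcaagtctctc

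Of the response genes, Sult1a1, Ddit4, Fkbp5 and Tsc22d3 had the largest differences between CR and AL tibiae, from 1.05 to 0.80 on the log2(FPKM + 1) scale over both ages. Errfi1, Sgk1 and Klf9 had 0.32, 0.30 and 0.25, and the receptor Nr3c1 and the enzyme Hsd11b1 had -0.046 and -0.13. Only Sult1a1 passed the test across all genes, and that only for diet over both ages. The test was a limma fit of the 4 group means with Benjamini-Hochberg adjustment over 13590 genes at a threshold of 0.05.

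Fkbp5 (chr17:28399094-28517527, minus strand) encodes a chaperone partner that lowers the receptor's affinity for hormone, a feedback on the pathway. It measured 12.8, 23.3 and 33.0 FPKM in young CR mice, against 7.48, 9.50 and 10.2 FPKM in young AL mice. In aged mice it measured 12.4, 22.3 and 26.0 FPKM under CR, against 9.78, 10.0 and 12.5 FPKM under AL. Every young CR mouse lay above every young AL mouse. In aged mice the groups overlapped, because aged CR mouse 5 lay at the level of the highest aged AL mouse. The difference was 1.17 ± 0.31 log2 units in young mice and 0.80 ± 0.31 in aged mice (SE, 3 mice per group). Neither passed (limma, adjusted p = 0.222 in young and 0.598 in aged mice).

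Tsc22d3 (chrX:140539528-140600659, minus strand) encodes GILZ, a leucine zipper protein that carries part of the hormone's anti-inflammatory action. It was the most abundant member by FPKM, which is scaled by length, with a mean of 49.0 FPKM over the 12 mice. Young CR mice had 46.7, 69.9 and 71.5 FPKM, against 24.6, 35.2 and 43.5 FPKM in young AL mice. Aged CR mice had 46.9, 60.8 and 79.0 FPKM, against 36.6, 28.1 and 45.0 FPKM in aged AL mice. All 6 CR mice lay above all 6 AL mice, with the narrowest gap between young CR mouse 1 and aged AL mouse 15. The differences were 0.86 ± 0.26 log2 units in young mice and 0.74 ± 0.26 in aged mice (SE). Neither passed (limma, adjusted p = 0.266 and 0.543 in young and aged mice).

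Ddit4 (chr10:59949669-59951834, minus strand) encodes REDD1, an inhibitor of the growth kinase complex mTORC1 that is induced by glucocorticoids, energy shortage and hypoxia. Its level was 13.01, 26.5 and 18.3 FPKM in young CR mice, against 5.02, 7.19 and 8.07 FPKM in young AL mice. In aged CR mice it was 9.54, 17.1 and 23.3 FPKM, against 7.39, 7.62 and 12.4 FPKM in aged AL mice. The young groups did not overlap, and in the aged groups mouse 5 under CR lay below mouse 15 under AL. The young difference of 1.35 ± 0.32 log2 units was the largest of any member at either age. It did not pass (limma, adjusted p = 0.182), and neither did 0.75 ± 0.32 in aged mice (limma, adjusted p = 0.628), which was 0.48 without aged CR mouse 7.

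Sult1a1 (chr7:126672865-126676432, minus strand) encodes a sulfotransferase that conjugates phenols and drugs and that glucocorticoid induces in liver cells. It measured 20.2, 24.4 and 24.6 FPKM in young CR mice, against 10.7, 10.9 and 12.9 FPKM in young AL mice. It measured 22.0, 25.5 and 29.8 FPKM in aged CR mice, against 11.9, 6.43 and 16.3 FPKM in aged AL mice. All 6 CR values lay above all 6 AL values, and the AL mice ranged widest among the aged. Sult1a1 rose with CR over both ages by 1.05 ± 0.17 log2 units (SE, 95% interval 0.67 to 1.43; limma, adjusted p = 0.0465), higher in 6 of 6 CR mice. Within an age it did not pass, at 0.94 ± 0.24 in young and 1.17 ± 0.24 in aged mice (limma, adjusted p = 0.212 and 0.294). The call over both ages rests close to the threshold. It was kept on leaving out aged CR mouse 5, aged AL mouse 14 or aged AL mouse 15, and lost on leaving out any of the other 9 mice, with adjusted p between 0.0687 and 0.130 (limma). Sult1a1 shares its locus with Sgf29 on the opposite strand, which differed by 0.37 log2 units at both ages (limma, adjusted p = 0.0692 over both). The libraries were stranded, and the sources used here do not say whether quantification used the strand.

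Errfi1 (chr4:150853919-150868892, plus strand) encodes MIG6, a feedback inhibitor of the EGF receptor. Young CR mice had 6.57, 8.11 and 7.81 FPKM, against 4.81, 5.08 and 4.15 FPKM in young AL mice. Aged CR mice had 6.33, 7.28 and 9.32 FPKM, against 7.16, 7.03 and 7.45 FPKM in aged AL mice. The young groups did not overlap, whereas the aged AL mice lay within the range of the aged CR mice. Young mice differed by 0.58 ± 0.12 log2 units and aged mice by 0.059 ± 0.12 (SE; limma, adjusted p = 0.162 and 0.948). The aged value was -0.076 without aged CR mouse 7 and 0.17 without aged CR mouse 5. An antisense gene, 1700045H11Rik, overlaps Errfi1.

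Sgk1 (chr10:21882184-21999903, plus strand) encodes a kinase that regulates ion channels and is induced by glucocorticoid and mineralocorticoid alike. It measured 11.3, 12.4 and 15.9 FPKM in young CR mice, against 9.45, 11.3 and 12.1 FPKM in young AL mice, and these groups overlapped. It measured 12.8, 13.4 and 15.9 FPKM in aged CR mice, against 11.6, 8.88 and 11.9 FPKM in aged AL mice, and these did not. The differences were 0.24 ± 0.15 log2 units in young and 0.36 ± 0.15 in aged mice (SE; limma, adjusted p = 0.570 and 0.611). They were 0.11 in young mice without young CR mouse 3, 0.15 without young AL mouse 9, and 0.23 in aged mice without aged AL mouse 14. Sgk1 was the 1 member with the full receptor site in a window that was read. Whether such a site goes with the size of a member's difference was not tested.

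Klf9 (chr19:23141226-23168134, plus strand), a zinc finger repressor that the receptor induces directly in many cell types, was low in tibia. Young CR mice had 1.19, 2.26 and 3.23 FPKM, against 1.29, 1.57 and 1.32 FPKM in young AL mice. Aged CR mice had 1.27, 2.29 and 2.20 FPKM, against 1.43, 2.13 and 1.47 FPKM in aged AL mice. At both ages 1 CR mouse lay below every AL mouse of its age, and the others lay above them. The differences were 0.38 ± 0.22 and 0.12 ± 0.22 log2 units in young and aged mice (SE; limma, adjusted p = 0.558 and 0.942). Single mice moved both: the young value was 0.16 without young CR mouse 3 and 0.64 without young CR mouse 1, and the aged value 0.021 without aged CR mouse 6 and 0.29 without aged CR mouse 5.

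Zbtb16 (chr9:48654297-48836222, minus strand) encodes PLZF, a zinc finger transcription factor. It averaged 0.404 FPKM and was not tested with the rest. It measured 0.197, 0.640 and 1.06 FPKM in young CR mice, against 0.226, 0.178 and 0.231 FPKM in young AL mice. It measured 0.212, 0.514 and 0.673 FPKM in aged CR mice, against 0.286, 0.310 and 0.322 FPKM in aged AL mice. The split within CR was that of Klf9, with mice 1 and 5 at or below the AL level and the other 4 CR mice above all 6 AL mice. In a fit with no minimum, chosen after the data were seen, the young difference was 0.39 ± 0.17 log2 units (SE; limma, adjusted p = 0.576), and 1.03 ± 0.47 with a pseudocount of 0.1 in place of 1 (SE; limma, adjusted p = 0.592).

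Nr3c1, the receptor, stayed in a narrow range at 8.57 to 11.3 FPKM over the 12 mice. It averaged 10.2 ± 0.232 FPKM in young CR and 10.6 ± 0.764 FPKM in young AL mice (SD, n = 3 each). It averaged 9.74 ± 1.01 FPKM in aged CR and 10.0 ± 0.324 FPKM in aged AL mice (SD, n = 3 each). The diet difference over both ages was -0.046 log2 units with a 95% interval of -0.18 to 0.085 (limma, adjusted p = 0.771). Receptor protein and hormone were not measured in these data.

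Hsd11b1 (chr1:193221634-193264075, minus strand) encodes the reductase that regenerates active hormone from its inert 11-keto form inside cells. It averaged 26.7 ± 2.83 FPKM in young CR and 28.3 ± 3.39 FPKM in young AL mice (SD, n = 3 each). It averaged 22.7 ± 4.16 FPKM in aged CR and 26.7 ± 9.26 FPKM in aged AL mice (SD, n = 3 each), where single mice ranged between 18.2 and 36.6 FPKM. The groups overlapped at both ages, and the difference over both ages was -0.13 log2 units with a 95% interval of -0.46 to 0.20 (limma, adjusted p = 0.737). It was -0.010 without aged AL mouse 15 and -0.25 without aged AL mouse 14.

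**Figure D1:**
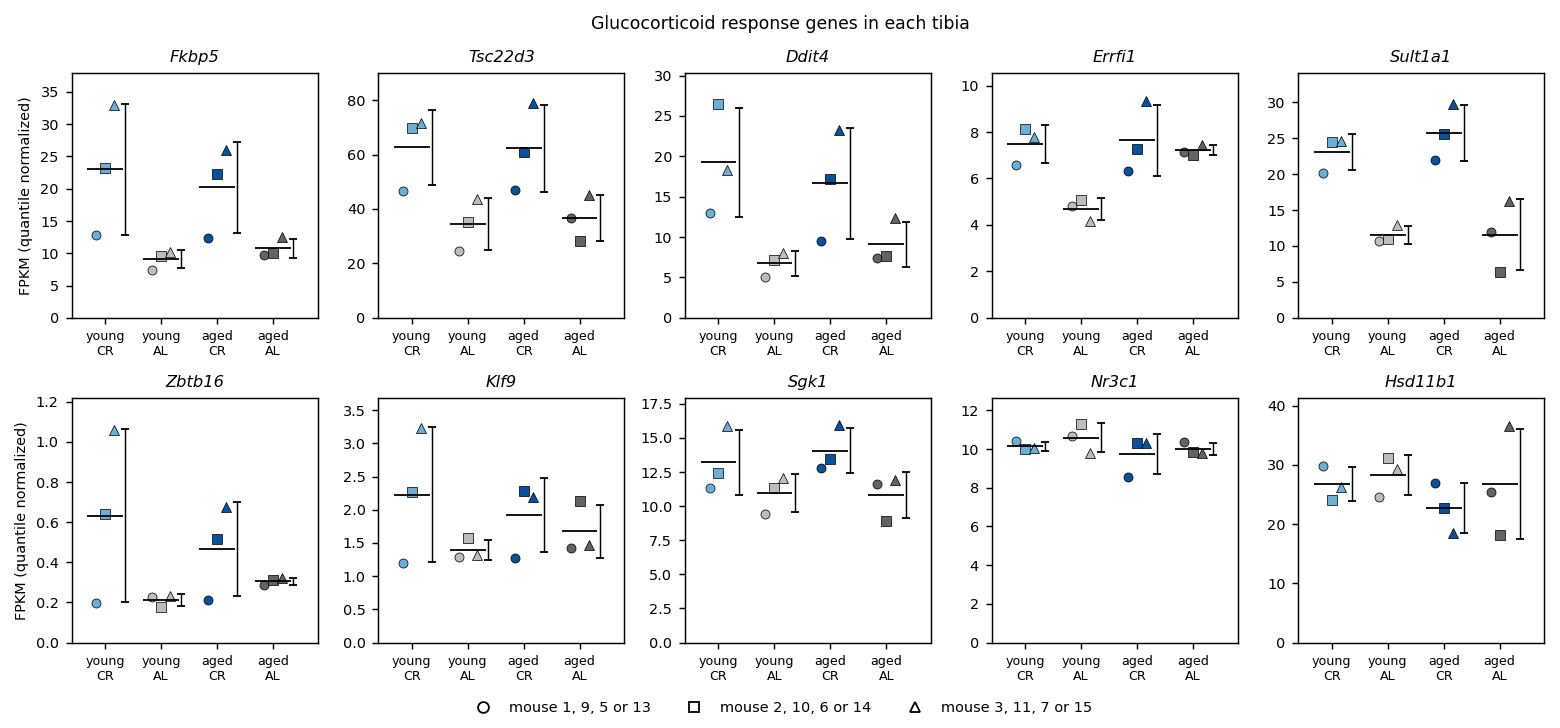
Quantile-normalized FPKM of the 10 response genes in each tibia, 1 panel per gene, with young CR, young AL, aged CR and aged AL mice along the axis. Symbols are single mice, horizontal lines group means and side bars the SD of 3 mice; Tsc22d3 and Sult1a1 have all 6 CR mice above all 6 AL mice, and Nr3c1 stays between 8.57 and 11.3 FPKM.

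Read against all genes tested, the members' counts were as follows. In young mice 0 of 9 members passed at an adjusted p under 0.05, where 0.0662% of all genes did (limma). At an unadjusted p under 0.05, 5 of 9 were higher in young CR mice (Fkbp5, Tsc22d3, Ddit4, Errfi1 and Sult1a1), against 5.79% of all genes. The same 5 had young groups that did not overlap, with CR higher, as did 10.1% of all genes. The median difference of the 9 was 0.58 log2 units, beside 0.0082 for all genes.

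In aged mice 0 of 9 members passed, and 0% of all genes did (limma). At an unadjusted p under 0.05, 5 of 9 were higher in aged CR mice (Fkbp5, Tsc22d3, Ddit4, Sult1a1 and Sgk1), against 4.5% of all genes. Tsc22d3, Sult1a1 and Sgk1, 3 of 9, had every aged CR mouse above every aged AL mouse, which 5.7% of all genes had. The median of the 9 was 0.36 log2 units, beside -0.0044 for all genes. CR lay above AL without overlap at both ages for 2 of 9 members, Tsc22d3 and Sult1a1, against 1.53% of all genes. For these 2 all 6 CR mice also lay above all 6 AL mice, as they did for 0.846% of all genes.

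For diet over both ages 1 of 9 members passed, Sult1a1, where 0.258% of all genes did (limma). Before adjustment, 6 of 9 were higher in CR mice at p under 0.05, against 7.42% of all genes, and 0 were lower. The next members by adjusted p were Ddit4 at 1.05 ± 0.23 log2 units (limma, adjusted p = 0.0816), Fkbp5 at 0.98 ± 0.22 and Tsc22d3 at 0.80 ± 0.18 (limma, adjusted p = 0.0844 each). Errfi1 followed at 0.32 ± 0.088, Sgk1 at 0.30 ± 0.10 and Klf9 at 0.25 ± 0.16 log2 units (SE; limma, adjusted p = 0.144, 0.237 and 0.510). The count depends on single mice. It fell to 0 on leaving out any of 9 mice, as for Sult1a1 above, and without aged CR mouse 5 it was 4, with Ddit4, Fkbp5 and Tsc22d3 beside Sult1a1 (limma, adjusted p = 0.0205, 0.0276 and 0.0425). Of all 13590 genes, 35 passed with every mouse kept and 223 without aged CR mouse 5. In the 9 fits where the members' count fell to 0, between 8 and 24 of all genes passed. The members were chosen with earlier results of these data known, so these counts describe the genes and are not independent evidence of a direction.

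**Figure D2:**
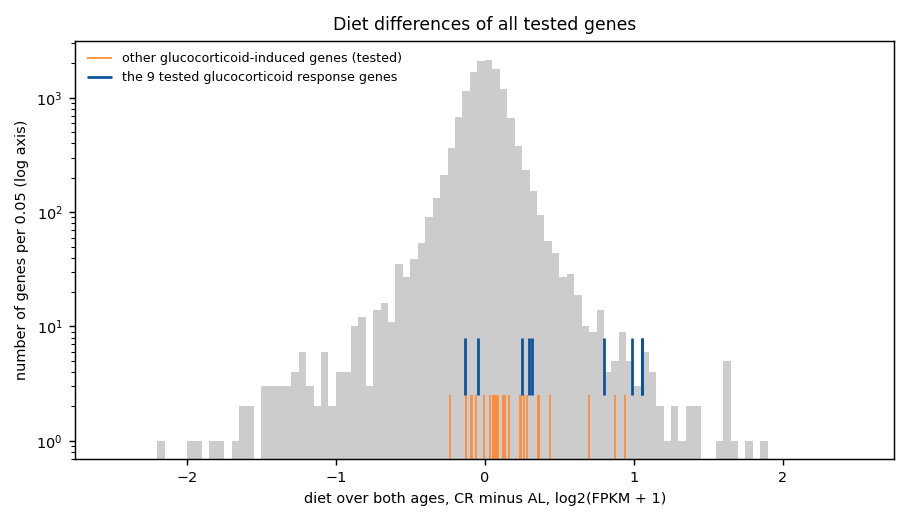
Histogram of the diet difference over both ages (log2(FPKM + 1), CR minus AL) for the 13590 genes tested, with the number of genes on a log axis. Tall blue lines are the 9 tested response genes, between -0.13 and 1.05, and short orange lines the 30 tested genes of a wider list of glucocorticoid-induced genes, with a median of 0.12.

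Whether the difference between diets itself differed with age was tested as the aged CR effect minus the young CR effect. Of the 9 members 0 passed, and 0% of all genes did (limma), and 1 member, Errfi1, was negative at p under 0.05 before adjustment, as were 1.86% of all genes. Errfi1 stood at -0.52 ± 0.18 log2 units (SE; limma, unadjusted p = 0.0128, adjusted p = 0.999) and Ddit4 at -0.60 ± 0.46 (SE; limma, adjusted p = 0.999). For Fkbp5 the difference of differences was -0.37, with a 95% interval of -1.35 to 0.61 log2 units, so that neither equal nor clearly unequal effects can be read from it. The interval for Sult1a1 was -0.53 to 0.99 around 0.23 log2 units.

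**Figure D3:**
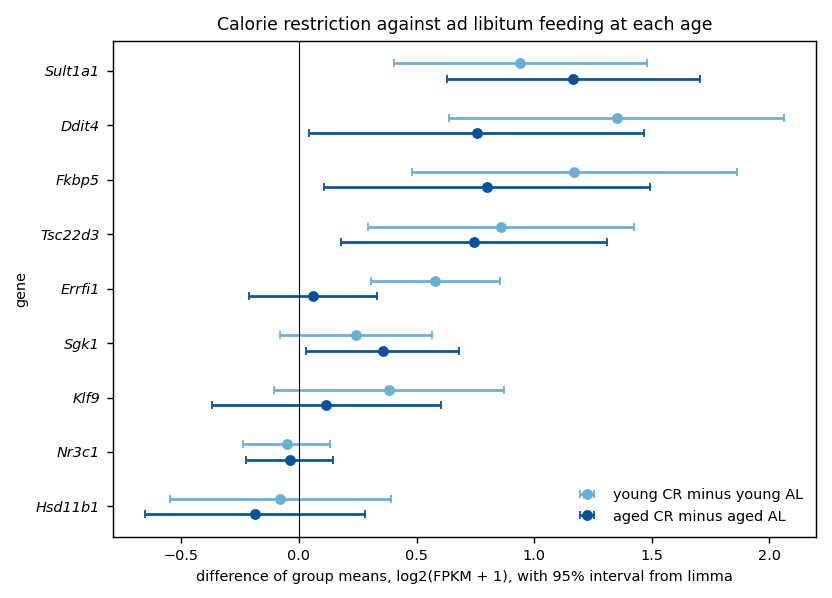
Difference of group means, CR minus AL, in log2(FPKM + 1) for the 9 tested members, with light blue for young and dark blue for aged mice and bars for the 95% interval from limma. The intervals of the ages overlap for all 9, and Errfi1 has its young value at 0.58 and its aged value at 0.059.

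Age itself showed less. Over both diets 0 of 9 members passed, where 0.758% of all genes did (limma), and 1, Errfi1, was higher in aged mice at p under 0.05 before adjustment, against 6.8% of all genes. The 9 differences ran from -0.18 for Hsd11b1 to 0.27 for Errfi1. The Errfi1 difference (SE 0.088; limma, unadjusted p = 0.0096, adjusted p = 0.170) lay in the AL groups, with 7.21 ± 0.216 FPKM in aged AL and 4.68 ± 0.479 FPKM in young AL mice (SD, n = 3 each). Under CR it measured 7.64 ± 1.53 FPKM in aged and 7.50 ± 0.818 FPKM in young mice (SD, n = 3 each). Of the 9 tested members only Errfi1 had every aged AL mouse above every young AL mouse, as did 5.59% of all genes; untested Zbtb16 had the same order.

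CR mice varied among themselves, and the members varied together. Young CR mouse 1 was the lowest of its group for 8 of the 10 members, all but Nr3c1 and Hsd11b1, and aged CR mouse 5 for 9 of 10, all but Hsd11b1. Young CR mouse 3 was the highest for 6 members and aged CR mouse 7 for 7. How often these mice were lowest or highest over all genes was not counted. Over all tested genes, mouse 5 was also the aged CR mouse farthest from its group. Averaged over the 9 tested members, the deviation from each gene's mean was 0.015, 0.38 and 0.46 log2 units in young CR mice, against -0.48, -0.24 and -0.22 in young AL mice. It was -0.047, 0.28 and 0.44 log2 units in aged CR mice, against -0.22, -0.40 and 0.032 in aged AL mice. Mouse 15, the highest of the aged AL mice for 8 members, thus lay above mouse 5, the lowest of the aged CR mice. Within young CR mice the SD came to 44.0% of the mean for Fkbp5, 45.7% for Klf9 and 68.3% for Zbtb16, against 15.6%, 11.1% and 13.7% in young AL mice. For Tsc22d3 it was 22.1% in young CR and 27.6% in young AL mice, and for Sult1a1 15.2% in aged CR and 42.8% in aged AL mice. It was larger under CR for 7 of 10 members in young mice and for 7 of 10 in aged mice. The share of all genes with a larger spread under CR was not counted, so these counts are not read as a trait of the members.

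**Figure D4:**
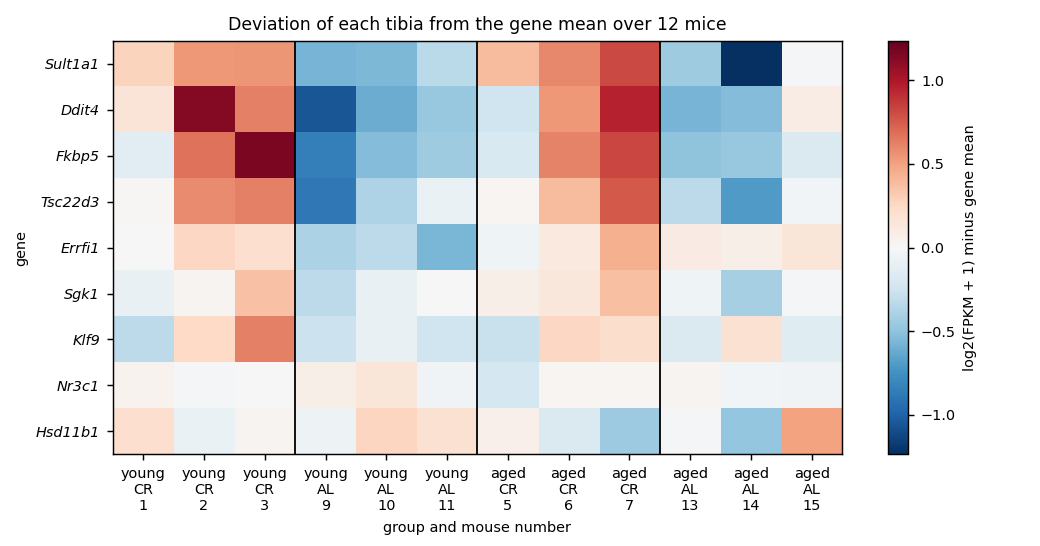
Heat map of each tibia's deviation from the gene's mean over 12 mice, in log2(FPKM + 1), for the 9 tested members (red above, blue below), with black lines between groups. Mice 1 and 5, the first column of each CR group, are paler than the other CR mice, with means over the members of 0.015 and -0.047.

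The genes whose levels ran most like the members' mean deviation were sought among the other 13581 tested genes, by Pearson's r over the 12 mice and as a description only, since the points share the split by diet. They were Crispld2 (r = 0.97), Sele, Atp6v0c and Gpr182 (r = 0.93 each) and Per1 (r = 0.93). Crispld2 encodes a secreted protein that glucocorticoids are known to induce in airway muscle cells. It averaged 14.2 FPKM in young CR and 6.25 FPKM in young AL mice, and 12.4 FPKM in aged CR and 6.48 FPKM in aged AL mice (log2 difference over both ages 0.93; limma, adjusted p = 0.0639). Sele is the endothelial adhesion molecule E-selectin, and Atp6v0c a subunit of the proton pump of lysosomes. Whether the hormone raises or lowers any of these genes in tibia was not tested.

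Of 32 other glucocorticoid-induced genes, 30 could be tested and 0 passed for diet over both ages (limma). Before adjustment, 10 of the 30 were higher at p under 0.05 in CR mice, against 7.42% of all genes, and 0 were lower. The median was 0.12 log2 units, beside 0.0025 for all genes. Per1, a clock gene with a receptor site of its own, measured 5.54, 9.25 and 9.67 FPKM in young CR mice, against 3.39, 2.62 and 4.08 FPKM in young AL mice. In aged mice it measured 6.37, 7.61 and 11.8 FPKM under CR, against 4.30, 4.21 and 5.79 FPKM under AL. Its groups did not overlap at either age, and over both ages it differed by 0.88 ± 0.17 log2 units (SE; limma, adjusted p = 0.0579). Il1r2, the decoy receptor for interleukin-1, differed by 0.70 ± 0.16 (SE; limma, adjusted p = 0.0844), also without overlap at either age. Of all genes, 1.53% had CR above AL without overlap at both ages. Pck1, Bnip3 and Nr1d1, described below, had this order too. Glul, the glutamine synthetase, differed by 0.36 and Rgcc, a cell cycle regulator, by 0.27 log2 units (limma, adjusted p = 0.179 and 0.112). The list was not uniform. Pdk4, a fasting and glucocorticoid target in muscle and liver, was named after its value was seen. Over both ages it stood at the list's low end with -0.23 (limma, adjusted p = 0.383). In aged mice it stood at -0.39 (limma, adjusted p = 0.611), and every CR mouse lay below every AL mouse, as for Tiparp. How many of all genes had this order was not counted, so it is not read as a trait of the list. Of the 30, 18 were positive in aged mice, 5 higher at an unadjusted p under 0.05 (4.5% of all genes) and 1 lower (limma). In young mice 23 were positive, 7 higher (5.79% of all genes) and 0 lower. Shares of all genes that were positive, or lower at that threshold, were not counted.

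All 10 receptor chaperones were tested and all 10 had a positive diet difference over both ages, with 0 passing (limma). The median was 0.11 log2 units, beside 0.0025 for all genes. At an unadjusted p under 0.05, 4 were higher in CR mice (limma), against 7.42% of all genes. The share of all genes with a positive difference was not counted, so 10 of 10 is not read as a trait of the chaperones. Hspa8, the constitutive Hsc70, measured 304, 271 and 361 FPKM in young CR mice, against 178, 198 and 231 FPKM in young AL mice. It differed by 0.50 ± 0.11 log2 units over both ages (SE; limma, adjusted p = 0.0844), and its aged groups overlapped. Fkbp4, which helps the loaded receptor reach the nucleus and opposes Fkbp5, differed by 0.22 log2 units, beside 0.98 for Fkbp5. Stip1, which hands clients from Hsp70 to Hsp90, differed by 0.24 and Ptges3, the p23 cochaperone, by 0.15 log2 units (limma, adjusted p = 0.169 and 0.189).

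Of the 8 other steroid receptors, converting enzymes and transporters, 3 reached the minimum and 0 passed (limma; 0 at an unadjusted p under 0.05). The mineralocorticoid receptor Nr3c2 averaged 0.215 FPKM, and Hsd11b2, the enzyme that inactivates the hormone, 0.0689 FPKM, each over the 12 mice. H6pd, which supplies cofactor to Hsd11b1, averaged 6.54 FPKM and differed by -0.071 log2 units (limma, adjusted p = 0.589). Of 12 coregulators 11 were tested, with a median of -0.052, beside 0.0025 for all genes, and 0 passing (limma). The share of all genes lower in CR mice at an unadjusted p under 0.05 was not counted. Of the 11 coregulators, 3 were lower at that threshold. These were Smarca4, the remodelling ATPase, at -0.28, the coactivator Ncoa2 at -0.20 and the forkhead factor Foxp1 at -0.26 log2 units (limma, adjusted p = 0.112, 0.193 and 0.264).

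Of 18 genes that glucocorticoids repress in various cells, 14 were tested and 0 passed for diet over both ages (limma), with a median of -0.12 log2 units. At p under 0.05 before adjustment, 1 was higher, against 7.42% of all genes, and 0 were lower. Bglap, which encodes osteocalcin and is lowered by glucocorticoid excess, measured 309, 468 and 314 FPKM in young CR mice, against 820, 606 and 659 FPKM in young AL mice. In aged mice it measured 249, 177 and 199 FPKM under CR, against 714, 111 and 382 FPKM under AL. The young groups were apart, with CR lower, and aged AL mouse 14 had the lowest value of all 12. Over both ages Bglap differed by -0.77 ± 0.36 log2 units (SE; limma, adjusted p = 0.363). Il1b, the inflammatory cytokine, differed by -0.45 and Vcam1, an adhesion molecule, by 0.56 (limma, adjusted p = 0.429 and 0.284). Vcam1 is also a marker of marrow macrophages.

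Several members respond to fasting signals besides the hormone, so genes of FOXO factors and fasting were set beside them. Of 12 such genes 10 were tested, with a median of 0.13 log2 units for diet over both ages and 0 passing (limma). At an unadjusted p under 0.05, 3 were higher, against 7.42% of all genes. Pck1, the gluconeogenic and glyceroneogenic enzyme, differed by 0.51 ± 0.097 (SE; limma, adjusted p = 0.0579). Klf15, a transcription factor of fasting metabolism and itself a receptor target, differed by 0.72 ± 0.17 and Bnip3, a mitophagy protein, by 0.29 ± 0.069 (SE; limma, adjusted p = 0.0901 and 0.0970). Klf15 measured 1.54, 1.89 and 2.07 FPKM in young CR mice, against 0.725, 0.680 and 0.614 FPKM in young AL mice. In aged CR mice it measured 0.898, 1.94 and 3.08 FPKM, against 1.12, 0.402 and 0.837 FPKM in aged AL mice, where mouse 5 lay within the AL range.

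Clock genes matter here because hormone release and feeding both follow the day. Of 16, 13 were tested and 0 passed for diet over both ages (limma), with a median of 0.059 log2 units, Per1 being the highest. At p under 0.05 before adjustment, 2 were higher, against 7.42% of all genes, and 1 was lower. Nr1d1, a clock repressor, differed by 0.36 ± 0.11 (SE; limma, adjusted p = 0.171). Arntl, the clock activator BMAL1, differed by -0.42 ± 0.16 (SE; limma, adjusted p = 0.284). It measured 3.70, 2.36 and 1.75 FPKM in young CR mice, against 3.61, 3.73 and 3.91 FPKM in young AL mice. In aged mice it measured 2.38, 1.56 and 1.33 FPKM under CR, against 3.35, 1.59 and 3.23 FPKM under AL. Mice 1 and 5, the lowest CR mice for most members, had the highest Arntl of their CR groups. The part of the time of day in the members' differences was not tested.

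**Figure D5:**
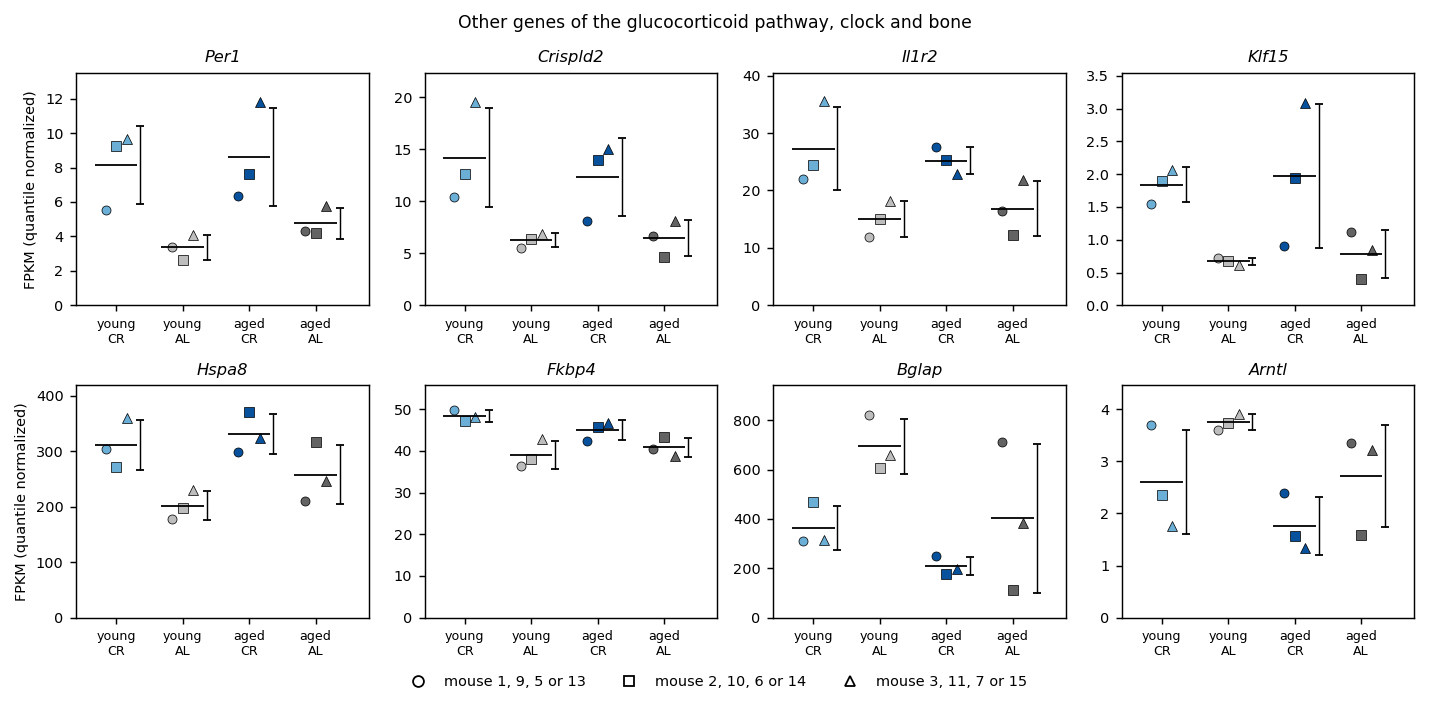
Quantile-normalized FPKM of 8 genes outside the members in each tibia, with young CR, young AL, aged CR and aged AL mice along the axis, symbols for single mice, lines for group means and side bars for the SD of 3 mice. Per1, Crispld2 and Il1r2 have no overlap between diets at either age, and Arntl ranges between 1.33 and 2.38 FPKM in aged CR mice. The closest Crispld2 values are 8.107 FPKM in aged CR mouse 5 and 8.103 FPKM in aged AL mouse 15.

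Sums of several cell type markers also stood apart by diet in young mice, and these sums overlapped in aged mice. The 8 adipocyte markers summed to 476, 475 and 304 FPKM in young CR mice, against 152, 144 and 174 FPKM in young AL mice. In aged mice they summed to 349, 701 and 655 FPKM under CR, against 352, 141 and 252 FPKM under AL. Of the 7 adipocyte markers tested, 3 passed for diet over both ages, higher in CR mice, where 0.258% of all genes passed in either direction (limma). The lowest adipocyte sum of its group belonged to young CR mouse 3, the highest for 6 members, but also to aged CR mouse 5, the lowest for 9, and to aged AL mouse 14, with the lowest mean deviation of its group. The 7 B cell markers summed to between 139 and 178 FPKM in young CR mice, against between 233 and 289 FPKM in young AL mice. In aged mice they overlapped, with 117 to 150 FPKM under CR against 78.3 to 273 FPKM under AL. The 8 osteoblast and osteocyte markers, which include Bglap, summed to between 750 and 1093 FPKM in young CR mice, against between 1294 and 1810 FPKM in young AL mice, and overlapped in aged mice. Of these 8, 4 had a positive difference in young mice and 6 in aged mice, so that the list did not move one way. Megakaryocyte markers summed lower in young CR mice (761 to 959 FPKM, against 1184 to 1379 FPKM in young AL mice). Osteoclast markers summed higher there (680 to 811 FPKM, against 504 to 654 FPKM), as did endothelial markers (38.1 to 39.6 FPKM, against 35.8 to 36.5 FPKM), and all 3 sums overlapped in aged mice. Skeletal muscle markers ranged between 117 and 848 FPKM without a split by diet. Adipocyte, bone, muscle, B cell, neutrophil and erythroid defining markers were above 0 in all 12 mice. The part of cell composition in the members' differences was not tested.

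The 12 mice shared 1 distribution of values after quantile normalization, with totals between 636207 and 636212 FPKM and between 6856 and 8057 genes at 0. Aged AL mouse 14 and aged CR mouse 5 lay farthest from their groups over all tested genes. Read depth is unknown, and with 3 mice against 3 the smallest exact permutation p is 0.1, so that no single comparison of groups could be called by an exact test.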

How the data were processed

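The deposited table holds, per the labels and the study's methods, FPKM from stranded mRNA libraries of whole tibia. Reads were trimmed (Trim Galore 0.5.0) and quality checked (FastQC 0.11.8, MultiQC 1.6) by the authors, who then used STAR 2.6.1 with mm10, obtained FPKM from StringTie 2.1.3b and quantile normalized these in R 4.1.1. The sources used here do not say how technical repeats were combined. At any rank the 12 mice lay within 0.00936 FPKM of each other. Quantile normalization gives every mouse 1 distribution and removes any shift of all genes together.

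Values were analysed as log2(FPKM + 1), and a fold on this scale understates the change of low genes. Genes averaging 1 FPKM or more were fitted in limma 3.58.1 (R 4.3.3) with 4 group means, a mean-dependent prior variance and Benjamini-Hochberg adjustment; the script was tested on simulated data. Differences are of group means with limma's SE. Gene positions come from GENCODE on GRCm38, and the authors' annotation release is not known here. Depth is unknown, so that precision rests on 3 mice per group. All 10 members were named; of each list the genes with the smallest p for diet over both ages, up to 4, and the 5 genes most like the members were taken. Members, lists and tests were chosen with earlier results of these data known. Alternatives were a pseudocount of 0.1, no filter, median-ratio scaling, quality weights, a fit of only the groups compared, FPKM tested with unequal variances, each mouse left out, and aged AL mouse 14 and aged CR mouse 5 left out together.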

Additional observations from a re-analysis of the deposited data

How the results depend on the processing

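Member medians for diet in young mice, in aged mice and over both ages kept their sign and moved by less than the spread between mice under every alternative run; the median of the diet by age difference was -0.11 and became 0.18 log2 units with quality weights. Counts of members passing limma's test moved more. Testing FPKM with unequal variances gave 0 members at each age, and 0 of all genes. In young mice the count was 0, and it was 1 with quality weights and 1 with only the groups compared (Sult1a1 each time; 304 and 74 of all genes, against 9), 0 to 1 with each mouse left out, and 2 with mice 14 (aged AL) and 5 (aged CR) both left out (Errfi1 and Sult1a1; 161 of all genes). In aged mice it was 0, and 1 with quality weights (Sult1a1; 193 of all genes, against 0). For diet over both ages it was 1, and it was 0 with no filter (Sult1a1, limma, adjusted p = 0.0990; range over all alternatives 0.00215 to 0.130), 5 with quality weights (Sult1a1, Ddit4, Fkbp5, Tsc22d3 and Errfi1; 923 of all genes, against 35), 0 to 4 with each mouse left out and 4 without mice 5 and 14 (442 of all genes). For age it was 0, and 1 with quality weights (Errfi1, 0.36 log2 units; limma, adjusted p = 0.0195; 1798 of all 13590 genes, against 103). The counts over all genes thus rose in the same fits. For diet over both ages, 9 of all genes passed with no filter, against 35. With each mouse left out, between 8 and 223 of all genes passed for that comparison. The cause of these moves was not tested. Aged diet differences near 0 changed sign: Nr3c1 ranged between -0.079 and 0.042 with each mouse left out and was 0.033 without mice 5 and 14, Errfi1 ranged between -0.076 and 0.17 (negative without aged CR mouse 7), and Hsd11b1 between -0.43 and 0.059 (positive without aged AL mouse 15; -0.55 without mice 5 and 14, limma, unadjusted p = 0.0137, adjusted p = 0.295). Median-ratio scaling moved the median of all genes by at most 0.018 log2 units. No paired analysis was possible because the shared numbers in the labels mark technical repeats of a mouse and the value columns carry none. Low genes such as Zbtb16 and Klf9 are limited by unknown depth.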
